A study of Macaca mulatta with 38 samples.

Results

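The eosinophil library of day 494 (labelled EOS) was set beside the libraries labelled Gr, Mono, nRBC, T and B of the same day, 6 of the 38 libraries of the series, all from peripheral blood of 1 rhesus macaque. The 6 were taken by the cell type and day in their labels, and the abbreviations are read here as eosinophils, granulocytes, monocytes, nucleated red blood cells, T cells and B cells. The animal, ZL34, was a 4-year-old male whose own CD34+ cells, mobilised with G-CSF and AMD1300 as the labels spell it, received a barcoded lentivirus library at MOI 25, the number of vector particles per cell, and were infused after TBI. Cidofovir was given weekly at 5 mg/kg. All 6 libraries share this animal, transplant and treatment, and there is no untransduced or untreated control. Each cell type has 1 library on the day, so differences have no replicate check and no p-value is given. Intervals are for counting error alone: reads made by PCR, with no molecular identifiers, are not independent molecules. The table holds barcode counts and no gene expression, so the cell type named in a label could not be set against marker genes, and no gate of the sort is given in these sources.

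A lentiviral barcode is copied with the genome it sits in, so all blood cells made by a marked stem or progenitor cell carry it. Eosinophils, neutrophils, monocytes and red cells are made continuously in the marrow and turn over quickly in blood, so their barcodes reflect the progenitors active shortly before sampling. T and B cells include long-lived cells and can hold barcodes of progenitors that were active much earlier. In blood the granulocyte fraction is normally made up mostly of neutrophils.

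EOS listed 36 of the 44423 barcodes of the table, from 3768274 reads. Gr listed 22 (3805440 reads), Mono 12 (2123287 reads), nRBC 9 (3832849 reads), T 1019 (766039 reads) and B 3296 (789584 reads). Counts from 1 to 100 do not occur, so a barcode listed at 0 was taken to have at most 100 reads, a limit inferred from the values. That limit is 0.00265% of reads in EOS, 0.00263% in Gr, 0.00471% in Mono, 0.00261% in nRBC, 0.0131% in T and 0.0127% in B. Barcodes are named bc1, bc2 and so on by their mean percent of reads over the 38 libraries.

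The 36 barcodes of EOS are described here in 3 parts. Nearly all reads lay in 6 barcodes, bc1 to bc6, which rose and fell together over the series and are called the leading group. They are shown because they set the level of every comparison, with the variable part in capitals between the fixed start and the sequencing adapter, 5′ to 3′.
bc1: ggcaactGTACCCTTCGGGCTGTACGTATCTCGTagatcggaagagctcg
bc2: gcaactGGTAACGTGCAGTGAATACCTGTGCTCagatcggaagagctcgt
bc3: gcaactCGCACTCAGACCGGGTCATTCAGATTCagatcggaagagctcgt
bc4: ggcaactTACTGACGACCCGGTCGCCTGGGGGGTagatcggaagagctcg
bc5: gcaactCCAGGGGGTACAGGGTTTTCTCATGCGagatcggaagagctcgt
bc6: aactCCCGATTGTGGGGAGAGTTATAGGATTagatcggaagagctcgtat

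The second part is bc11 alone, set apart by its share in Gr, and the third is the other 29 barcodes. In EOS itself bc11 held 0.0724%, and the 29 ran without a set boundary from 0.0296% (bc10) to 0.00271% (bc31 and bc63). All 36 barcodes of EOS were listed in T on the same day. The sequences of bc11, which separated EOS from Gr, and of the 4 highest of the 29 (bc10, bc7, bc9 and bc8, the bc7 group) are given next. They are followed by bc13 and bc19, which were among the most abundant barcodes of T, and by bc62, which was higher in B than in T.
bc11: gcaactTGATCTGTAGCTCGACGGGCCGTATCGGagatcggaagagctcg
bc10: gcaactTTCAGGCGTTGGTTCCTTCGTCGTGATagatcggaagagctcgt
bc7: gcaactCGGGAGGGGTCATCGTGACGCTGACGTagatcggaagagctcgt
bc9: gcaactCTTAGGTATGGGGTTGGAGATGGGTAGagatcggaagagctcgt
bc8: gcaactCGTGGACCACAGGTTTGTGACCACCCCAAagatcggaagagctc
bc13: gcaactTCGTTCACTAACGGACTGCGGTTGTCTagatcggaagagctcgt
bc19: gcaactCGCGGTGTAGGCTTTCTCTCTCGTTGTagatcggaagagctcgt
bc62: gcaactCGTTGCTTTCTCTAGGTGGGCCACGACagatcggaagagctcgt

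All 36 sequences share a stretch of 15 bases from the adapter, and 33 have a variable part of 26 to 28 bases. The exceptions are bc8 with 29, bc20 with 13 and bc31 with 9. 3 of the 6 leading barcodes (bc1, bc4 and bc6) do not begin with GCAACT, the start of 43749 sequences in the table, against 0 of the other 30 in EOS and 1.52% of the table. bc6 has 1 of only 3 sequences in the table that begin with AACTCC. This feature was noticed after the values were seen. Compared position by position, the closest 2 of the 36 sequences differ at 13 positions, so none is a copy of another with a few substitutions. A copy with an insertion, a deletion or a shifted start would not be seen by this count.

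The leading group held 99.7% of EOS reads. The remainder was 0.332% (exact Clopper-Pearson 95% interval 0.326 to 0.338%). The remainder was 5.92% of Gr reads (5.90 to 5.94%), 0.0810% of Mono reads (0.0772 to 0.0849%) and 0.0521% of nRBC reads (0.0498 to 0.0544%). On this measure EOS lay nearer to Mono and nRBC than to Gr, but with more reads outside the group than either. This placing rests on bc11, which alone held 5.86% of Gr reads. With bc11 left out too, the remainder was 0.259% in EOS, 0.0552% in Gr, 0.0285% in Mono and 0.00577% in nRBC, and Gr was the nearest to EOS. In T the group held 3.98% of reads and in B 5.29%. The exponential of the Shannon entropy, which counts barcodes as if equally abundant, was 6.14 in EOS, 6.77 in Gr, 6.01 in Mono, 5.99 in nRBC, 153 in T and 2405 in B.

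Each leading barcode had almost the same share in EOS as in the other fractions made up mainly by the group. bc1 held 18.4% in EOS, 17.8% in Gr, 19.2% in Mono and 19.3% in nRBC. bc2 held 17.7%, 16.0%, 17.9% and 18.3% in the same order, and bc3 17.3%, 16.2%, 17.4% and 17.3%. The group's composition was thus nearly fixed across these 4 cell types. Its members were joined for covarying over the 38 libraries, these included, so a similar composition follows in part from that choice. bc4 held 15.5%, 14.7%, 16.1% and 15.0%, bc5 14.9%, 13.9%, 14.1% and 14.3%, and bc6 15.8%, 15.5%, 15.2% and 15.6%. In T the 6 held 0.564% (bc5) to 0.781% (bc2), and in B 0.707% (bc5) to 1.05% (bc1). Scaled to the group's own reads, the members differed from EOS by a root mean square of 0.04 on the log2 scale in Gr, 0.05 in Mono, 0.05 in nRBC, 0.09 in T and 0.11 in B. These spreads are the only sign of variation between libraries that the day offers, for abundant barcodes; the rare ones have none. The single largest deviation among Gr, Mono and nRBC was that of bc5 in Mono, −0.08 on the log2 scale. Over the 35 other libraries that list all 6, the closest to EOS in this composition was Mono of day 553, at a root mean square of 0.033. Mono of day 266, Gr of day 494 and nRBC of day 553 followed, all level at 0.036. nRBC and Mono of day 494 were the fifth and the sixth, at 0.046 and 0.051.

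**Figure D1:**
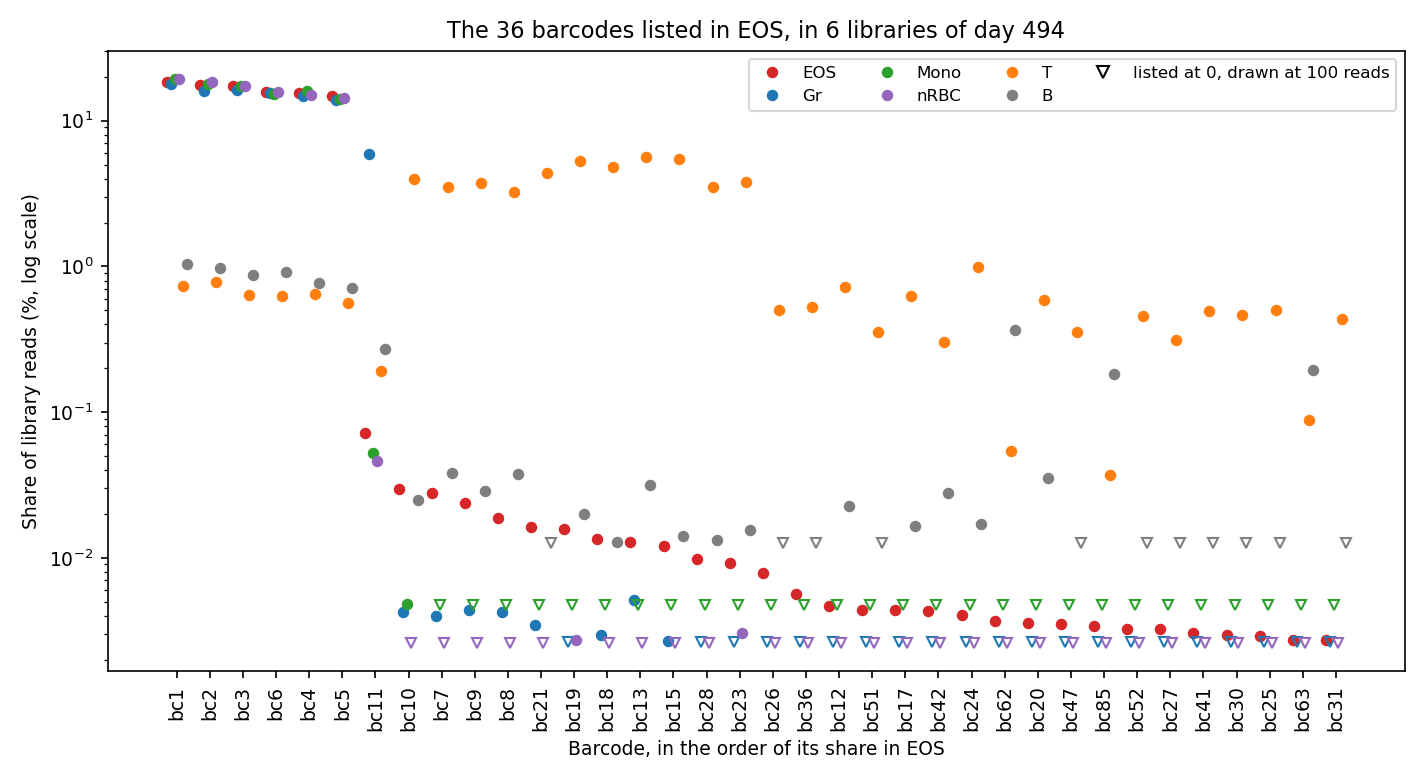
The share of library reads (percent, log scale) of each of the 36 barcodes listed in EOS, in the order of that share, in the EOS, Gr, Mono, nRBC, T and B libraries of day 494. Filled points are listed values and open triangles mark barcodes listed at 0, drawn at 100 reads, so they are upper limits. The leading 6 overlap in EOS, Gr, Mono and nRBC, bc11 is high in Gr at 5.86%, and the 29 others are low in EOS and higher in T.

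bc11 was the barcode that set EOS apart from Gr. It was listed in all 6 libraries, at 0.0724% in EOS (95% interval 0.0698 to 0.0752%), 5.86% in Gr (5.84 to 5.89%), 0.0525% in Mono (0.0494 to 0.0556%) and 0.0463% in nRBC (0.0442 to 0.0485%). In T it was 0.190% and in B 0.271%. Gr alone was high, and the other 5 libraries lay within 0.0463 to 0.271%. The share in Gr was 80.9-fold that in EOS (counting interval 78.0 to 84.1), or −6.34 as log2 of EOS over Gr, where the leading barcodes lay at 0.03 to 0.14. EOS was 1.38-fold Mono (1.29 to 1.48) and 1.56-fold nRBC (1.47 to 1.66), log2 differences of 0.47 and 0.64.

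The share of bc11 also moved by such amounts between neighbouring days within a cell type. It was listed in 29 libraries, the first at day 187. In Gr the share went from 0.0738% (day 266) to 7.95% (day 365), 5.86% (day 494) and 0.151% (day 553). Mono went from 1.23% (day 187) to 3.38% (day 266), 6.47% (day 365), 0.0525% (day 494) and 0.130% (day 553). Mono thus fell 123-fold between days 365 and 494, while Gr fell 1.36-fold over those days and 38.8-fold between days 494 and 553. nRBC went from 0.483% (day 266) to 6.09% (day 309), 0.0538% (day 393), 0.0463% (day 494) and 0.135% (day 553). T peaked on day 365 with 1.03% and B on day 266 with 1.09%. At day 553 Gr, Mono, nRBC and the library labelled CD34p lay between 0.130 and 0.151%. EOS has a single day, so whether its bc11 share had been higher earlier is not known, and cell type and variation between samplings cannot be told apart with 1 library each.

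**Figure D2:**
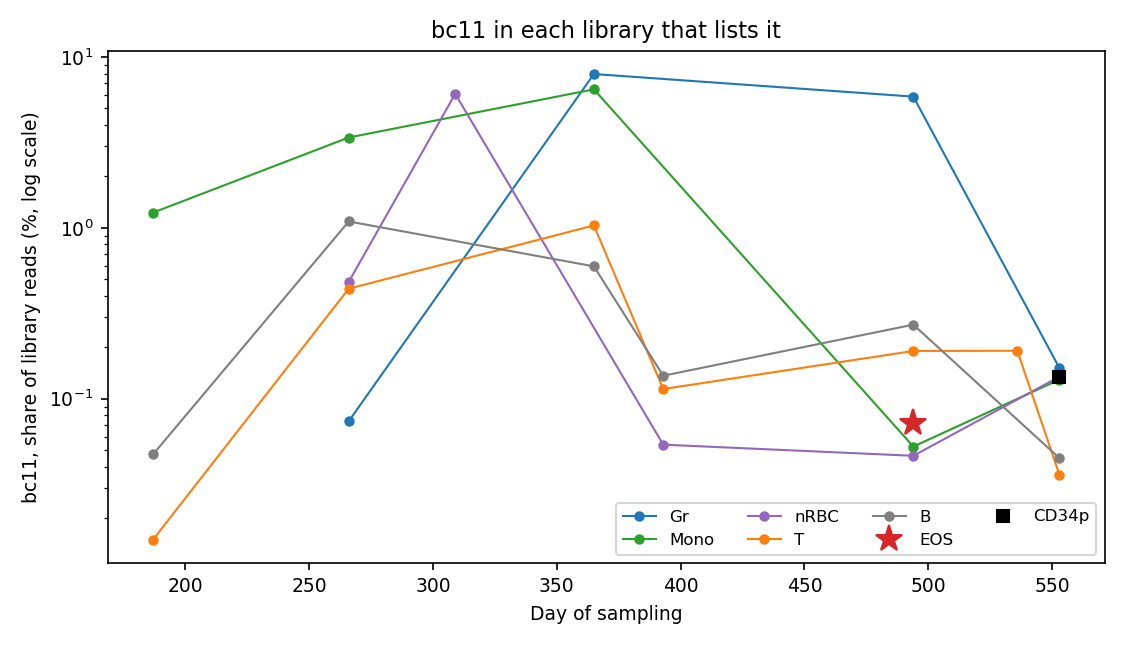
The share of reads of bc11 (percent, log scale) against day of sampling in every library that lists it, with lines joining the libraries of a cell type, a star for EOS and a square for CD34p. At day 494 EOS lies beside Mono and nRBC, and Gr is at 5.86%.

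Against Gr, 8 of the 43 barcodes listed in either library were at least 4-fold higher in EOS (18.6%), with a 0 set to 100 reads, and bc11 was the only barcode at least 4-fold lower (2.33%). Most other rare barcodes lay too close to the limit of listing to reach 4-fold. The 8 were bc7, bc8, bc9, bc10, bc15, bc18, bc19 and bc21. bc10 was 6.99-fold higher (counting interval 5.92 to 8.30), bc7 6.98-fold (5.88 to 8.33), bc9 5.44-fold (4.60 to 6.46) and bc8 4.41-fold (3.71 to 5.26). bc21, bc18 and bc15 were 4.69-fold, 4.55-fold and 4.48-fold higher, with lower bounds of 3.88, 3.70 and 3.60. bc19 was listed at 0 in Gr and was at least 6.01-fold higher in EOS.

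Against Mono, 3 of the 40 barcodes listed in either library were at least 4-fold higher in EOS (7.5%) and 0 were lower (0%). bc10 was 6.09-fold higher (4.98 to 7.53), bc7 at least 5.88-fold and bc9 at least 5.04-fold, since both were listed at 0 in Mono. The Mono library is shallower, so its limit lies 1.79 times that of EOS, and only 12 of the 28 EOS barcodes at 0 in Mono had an EOS share above what Mono could list.

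Against nRBC, 9 of 36 were at least 4-fold higher in EOS (25%) and 0 were lower (0%). bc19 was 5.82-fold higher (4.72 to 7.24). bc10, bc7, bc9 and bc8 were at 0 in nRBC and at least 11.3-fold, 10.6-fold, 9.09-fold and 7.19-fold higher in EOS. The bound was 6.24-fold for bc21, 5.18-fold for bc18, 4.88-fold for bc13 and 4.60-fold for bc15. All 9 barcodes of nRBC were listed in EOS, against 15 of 22 of Gr and 8 of 12 of Mono. These counts are of shares of all reads. With shares taken of the reads outside the leading group, 29 barcodes were at least 4-fold higher in EOS than in Gr. In Mono 0 were passed as higher in EOS and 4 as lower, and in nRBC 0 and 1. Those counts follow largely from the limits. The limit is 0.00471% of reads in Mono, where 0.0810% lay outside the group, and 0.00261% in nRBC, where 0.0521% did. A barcode at 0 there could thus not be called higher in EOS. In Gr 5.92% lay outside the group, nearly all of it bc11, so all 29 rare barcodes of EOS passed.

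**Figure D3:**
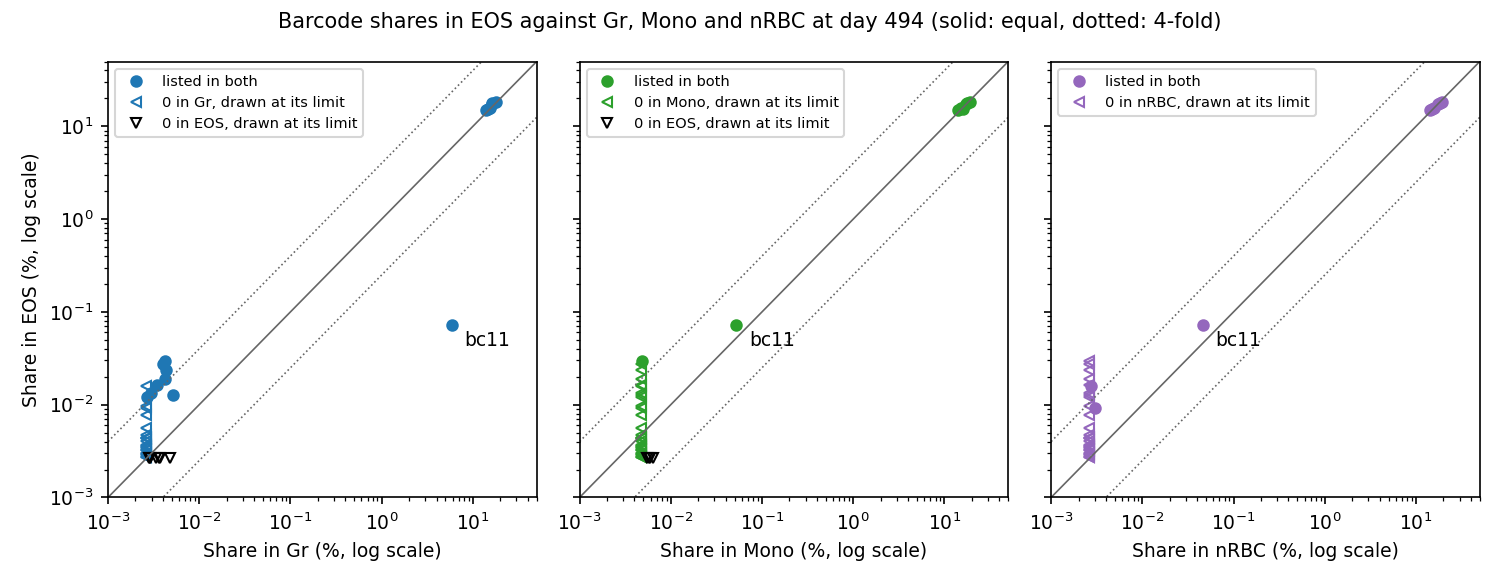
The share of reads of each barcode in EOS against its share in Gr, Mono and nRBC at day 494 (percent, both axes log scale), with a solid line for equal shares and dotted lines at 4-fold. Triangles mark barcodes listed at 0 in 1 of the 2 libraries, drawn at its limit of 100 reads. The leading barcodes lie on the line in all 3 panels, bc11 lies below it in Gr only, and the rare barcodes listed in both libraries of a panel lie above it.

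Together the 29 rare barcodes made up 0.259% of EOS reads (95% interval 0.254 to 0.264%). In Gr 8 of them were listed, at 0.0311% in all, in Mono 1 at 0.00485% (bc10) and in nRBC 2 at 0.00577% (bc19 and bc23). These sums leave out barcodes under each limit. With each 0 at its limit of 100 reads, the 29 made up at most 0.0863% of Gr, 0.137% of Mono and 0.0762% of nRBC. These barcodes were chosen by being listed in EOS, which by itself favours a higher sum there. Without the choice by EOS, all barcodes outside the leading group and bc11 made up 0.259% of EOS (29 listed), 0.0552% of Gr (15), 0.0285% of Mono (5) and 0.00577% of nRBC (2), again without barcodes under each limit. Leaving out bc11 was itself a choice made with its values known. With bc11 kept, EOS had 0.332% outside the leading group and Gr 5.92%, so the order of these 2 depends on it. In T of day 494 the same 29 barcodes made up 55.2% of reads, and in B, where 18 were listed, 1.10%.

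All 29 were listed in T, and the T share was above the EOS share for each. Of the 6 libraries, T held the highest share of 26 of them and B that of the other 3. Listing in EOS followed abundance in T. All 11 barcodes with at least 1% of T reads were in EOS, and outside the leading group so were 15 of the 35 with 0.3 to 1%, 1 of the 52 with 0.1 to 0.3% (bc11) and 3 of the 915 below 0.1%. Of the barcodes absent from EOS, the highest in T were bc14 (0.846%) and bc16 (0.618%). In B all 6 barcodes with at least 0.5% were the leading group, 4 of the 45 with 0.1 to 0.5% were in EOS (bc62, bc11, bc63 and bc85), and 15 of the 3245 below 0.1%. The highest in B that were absent from EOS were bc112 (0.277%), at 0 in T, and bc73 (0.200%). 19 EOS barcodes were listed in none of Gr, Mono and nRBC of the day.

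By the count past 4-fold, 6 of the 1019 barcodes listed in EOS or T were higher in EOS (0.589%), the leading group, and 1012 were lower (99.3%). Against B, 6 of 3307 were higher (0.181%), the same group, and 3278 lower (99.1%). These large counts follow from the limits, since the least that T or B could list was 4.97 and 4.82 times the EOS limit, so every barcode at 0 in EOS passed.

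The bc7 group held bc7, bc8, bc9 and bc10, whose summed share had been 34.6% in Gr (day 119), 26.1% in Mono (day 119), 14.2% in Gr (day 187) and 31.2% in Mono (day 187). bc10 had 0.0296% in EOS, 0.00423% in Gr, 0.00485% in Mono, 0 in nRBC, 3.97% in T and 0.0249% in B. bc7 had 0.0277% in EOS, 0.00397% in Gr, 0 in Mono and nRBC, 3.50% in T and 0.0382% in B. The order was T far above EOS and B, and both above Gr. bc9 had 0.0237% in EOS, 0.00436% in Gr, 3.74% in T and 0.0289% in B, and bc8 0.0188%, 0.00426%, 3.27% and 0.0379%, both at 0 in Mono and nRBC. As a percent of its share in T, the EOS share was 0.744% for bc10, 0.791% for bc7, 0.635% for bc9 and 0.574% for bc8.

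The bc13 group, which was highest in T on this day and never above 0.133% in a library of another cell type, had 7 members, all listed in EOS. They held 32.9% of T reads and 0.0892% of EOS reads, against 14.5% and 0.0997% for the bc7 group. In the order of EOS share they were bc21 (0.0163% in EOS and 4.36% in T), bc19 (0.0158% and 5.30%), bc18 (0.0135% and 4.82%), bc13 (0.0127% and 5.65%), bc15 (0.0120% and 5.46%), bc28 (0.00974% and 3.52%) and bc23 (0.00921% and 3.79%). Gr listed bc13 (0.00515%), bc21 (0.00347%), bc18 (0.00297%) and bc15 (0.00268%), nRBC listed bc19 (0.00271%) and bc23 (0.00306%), and Mono listed none. B listed all but bc21, at 0.0129 to 0.0314%.

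The EOS share as a percent of the T share was 0.574 to 0.791% in the bc7 group and 0.220 to 0.373% in the bc13 group. The members of the groups did not overlap, nor did their counting intervals, the nearest being bc8 (0.532 to 0.619%) and bc21 (0.344 to 0.404%). Members were joined for covarying over libraries that include EOS and T of this day. Similar ratios within a group, and so the gap between the groups, follow in part from that choice. The summed bc7 group was 1.12 times the bc13 group in EOS and 0.440 times in T. In Gr, which lists 4 of the 7 bc13 members, it lay between 0.759 times, with each 0 at its limit, and 1.18 times, and in B, which lists 6, between 1.08 and 1.21 times. Gr and B of the day, set against the same T library, had the same order: 0.106 to 0.130% against 0.0491 to 0.0911% in Gr (4 of 4 and 4 of 7 listed), and 0.628 to 1.16% against 0.257 to 0.556% in B (4 of 4 and 6 of 7 listed). EOS, Gr and B were all divided by the same T shares, so Gr and B are no separate check of the order. The order also depends on which T library is the divisor. The bc13 group made up 9.46% of T reads (day 393), then 32.9% (day 494), 25.7% (day 536) and 8.74% (day 553). The bc7 group made up 17.0%, 14.5%, 8.19% and 6.73% of the same libraries. In T of day 393 the summed bc7 group was thus the larger, by a wider margin than in EOS. At day 553 the groups overlapped in Gr against T, at 0.283 to 0.411% and 0.199 to 0.951%. The groups were built from covariation across the same 38 libraries, so members are not independent of each other.

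**Figure D4:**
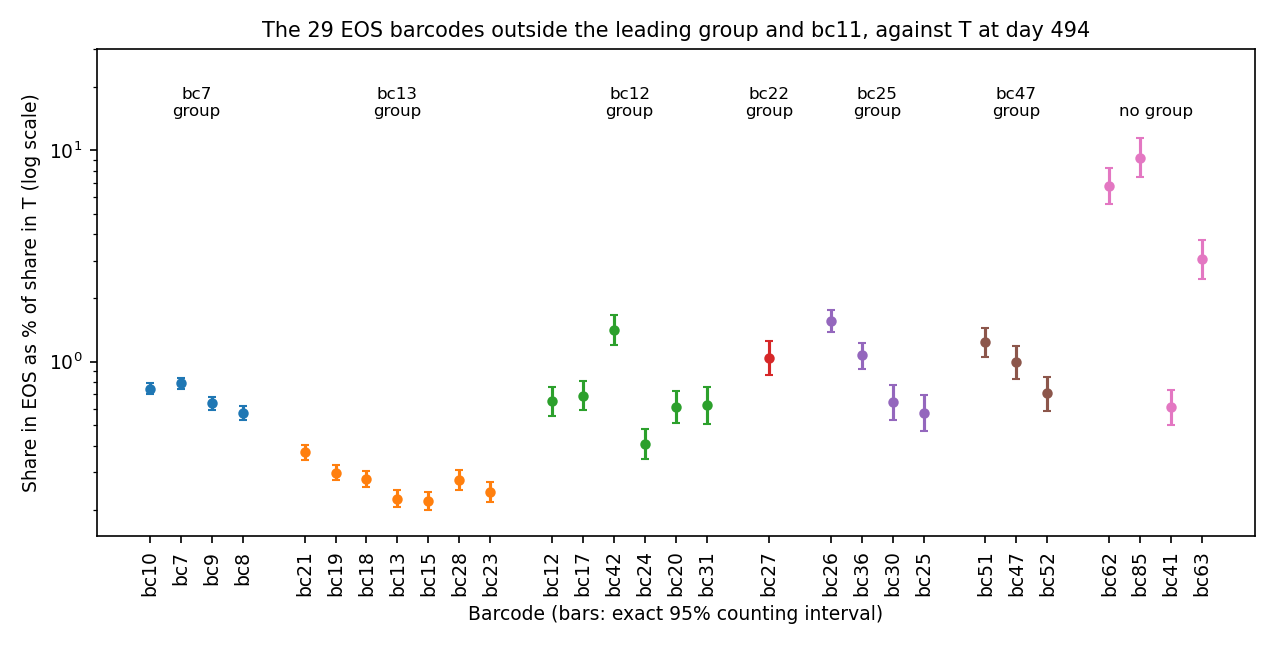
The share of each of the 29 rare EOS barcodes in EOS as a percent of its share in T at day 494 (log scale), by the group it belongs to, with exact 95% counting intervals as bars. The bc13 group is lowest at 0.220 to 0.373%, the bc7 group lies above it, and bc62, bc63 and bc85 are highest.

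The other 18 rare barcodes lay close to the limit of listing, 16 of them at under 2 times it, so each is seen in EOS only because its share was high enough. From the bc25 group, which peaked in Mono at day 187 (bc25, bc26 and bc30) or T at day 119 (bc36), EOS listed all 4: bc26 (0.00783%), bc36 (0.00563%), bc30 (0.00297%) and bc25 (0.00289%). From the bc12 group, which had been highest in Mono at day 119, it listed 6 of 11: bc12 (0.00470%), bc17 (0.00435%), bc42 (0.00433%), bc24 (0.00403%), bc20 (0.00358%) and bc31 (0.00271%). The 10 had 0.305% (bc42) to 0.983% (bc24) of T reads. From the bc47 group it listed 3 of 5, bc51 (0.00438%), bc47 (0.00353%) and bc52 (0.00326%), and from the bc22 group 1 of 3, bc27 (0.00326%). None of the 9 members of the bc32 group was listed, of which bc33 was the highest in T at 0.358%. None of these 14 barcodes was listed in Gr, Mono or nRBC of the day.

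The remaining 4 belonged to no group. bc41 had 0.00303% in EOS and 0.495% in T. bc62, bc85 and bc63 were the only rare EOS barcodes with more reads in B than in T: bc62 had 0.00366% in EOS, 0.365% in B and 0.0539% in T, bc85 0.00340%, 0.184% and 0.0368%, and bc63 0.00271%, 0.196% and 0.0889%. As a percent of T their EOS shares were 6.79%, 9.23% and 3.04%, and as a percent of B 1.00%, 1.85% and 1.38%. These percents of T are set from below by the limit of listing: at their T shares the 3 could be listed in EOS only above 4.92%, 7.21% and 2.99%. In the other 26 rare barcodes the EOS share was 0.220 to 1.56% of the T share. How far T or B cells, or their DNA or reads, contribute to the EOS library was not tested.

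Gr or Mono listed 9 barcodes that EOS did not. They held 0.00284 to 0.00641% of reads, at most 2.41 times the EOS limit. The 4 listed in Mono held 2.08 to 2.41 times that limit and were thus lower in EOS, and the 5 in Gr alone held at most 1.42 times it. 6 were listed in B of day 494, which lists 3296 of the 44423 barcodes of the table. 0 were listed in T of day 494, which lists 2.29% of all barcodes and whose limit is above all 9 shares. Of the 9, 7 had their highest share in Gr at day 266, which lists 4871 of the 44423 barcodes. bc3296 and bc641 were in both Gr and Mono. Gr alone had bc531, bc565, bc755, bc941 and bc2188, and Mono alone bc1571 and bc1853.

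Of the 36, 31 were listed in some library at day 32, as were 60.1% of all barcodes of the table, 4 (bc15, bc18, bc19 and bc28) first at day 119 and bc11 first at day 187. Each was listed in 18 to 37 of the 38 libraries, and each of the 29 rare ones in 7 or 8 of the 9 T libraries. The 29 had their highest share in Mono for 12 of them, in T for 11, in Gr for 4 and in B for 2.

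Over all barcodes, Pearson's r on square roots of read shares between EOS and the other libraries of the day was 1.000 with nRBC, 0.999 with Mono, 0.970 with Gr, 0.547 with B and 0.243 with T. These values describe the leading group and bc11. Gr had r of 0.967 with Mono and 0.967 with nRBC, against 1.000 between Mono and nRBC, so Gr stood apart from all 3. Barcodes of a library share its total and are not replicates, so r has no p. With the leading group left out and the rest scaled to 100%, the order became T 0.765, nRBC 0.677, Gr 0.570, Mono 0.281 and B 0.013. Between Gr and T the same value was 0.079, between Mono and T 0.055 and between nRBC and T 0.154. bc11 made up 21.8% of that remainder in EOS, 99.1% in Gr, 64.8% in Mono, 88.9% in nRBC and 0.198% in T. With bc11 left out too, an alternative added after seeing the data, r was 0.850 with T, 0.173 with nRBC, 0.093 with Gr, −0.426 with Mono and −0.051 with B. nRBC then has 2 listed barcodes left and Mono 5. Among all 37 other libraries the remainder of EOS had its highest r with Gr of day 553, 0.914, or 0.911 without bc11. Gr of day 553 then has 11 listed barcodes left, all of them also in EOS. These r values are over unlike sets: before any were left out, 36 barcodes for Gr of day 553 and 1019 for T of day 494. The ranking is thus a description only.

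**Figure D5:**
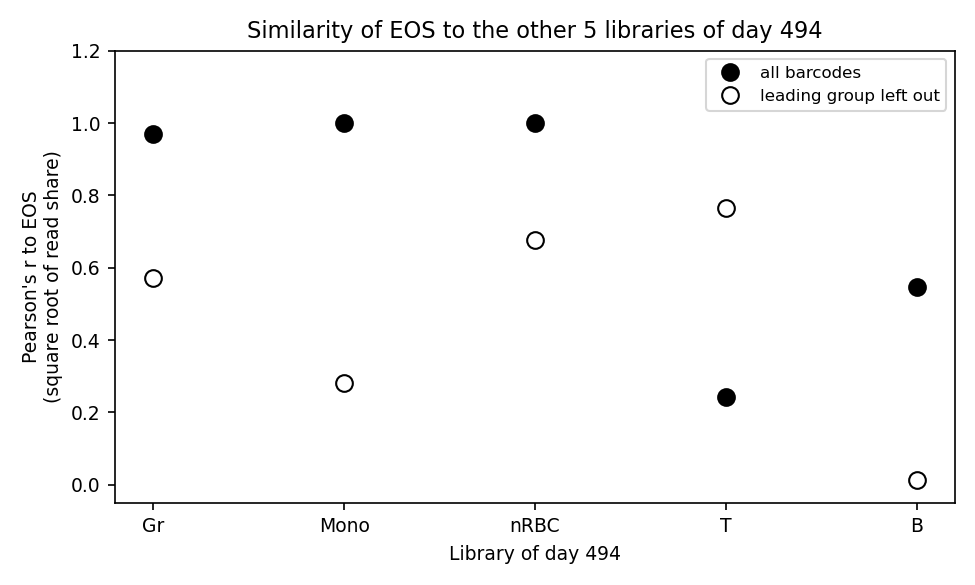
Pearson's r, on square roots of read shares over barcodes, between EOS and the other 5 libraries of day 494, with all barcodes (filled) and with the leading group left out and the rest scaled to 100% (open). With all barcodes nRBC, Mono and Gr are at 0.970 or above, and without the leading group T is highest at 0.765.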

How the data were processed

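Per the labels' protocols, 200 ng of DNA went into a barcode PCR of 28 cycles. The authors deposited 1 table of read counts per barcode and library. No header states the unit, which was taken from the values: all are whole, column sums differ, and none lies from 1 to 100. The counting program and any rule for dropping low counts: not given in the sources used here. A column sum is the reads of listed barcodes, not the whole depth.

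Shares are percent of the column sum, computed with pandas 2.3.3 and scipy 1.17.1. Intervals are exact Clopper-Pearson at 95%, and for ratios come from the binomial of the counts in both libraries. Groups joined the 51 barcodes that reached 1% in some library by complete linkage, where every pair had r of at least 0.95 on log2(percent + 0.01) over 38 libraries. All 36 EOS barcodes are named, since the rule was to name all if 40 or fewer were listed. A difference was counted past 4-fold, with a 0 set to 100 reads in the lower library. Scripts were tested on simulated data. The libraries compared, the leading group and the lists were chosen with earlier results of these data known. Alternatives are given in the closing section.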

Additional observations from a re-analysis of the deposited data

How the results depend on the processing

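Of 103 alternative values, 60 stayed within the set margin (1.5 times for a count, 0.05 for r, the counting interval for a share), 41 moved and 2 changed sign. Merging sequences within 1 or 2 mismatches of a barcode at least 10 times as abundant merged 0 barcodes, and groups at r of 0.90 or 0.98 left the same leading share. Mismatches were counted position by position, so copies with an insertion, a deletion or a shifted start would not merge. With the limit of 0.0132% of the shallowest library applied to all 6, EOS listed 14 barcodes, of which Gr listed 7, T 14 and B 12, so most rare EOS barcodes rest on the depth of EOS. With each 0 set to 1 read the leading share in EOS was 98.5%.

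r with T was 0.097 on untransformed percent, 0.371 on log2(percent + 0.01) and 0.043 as the sum of the smaller shares, and with B 0.855, 0.317 and 0.056. Without the leading group r was 0.570 with Gr, 0.281 with Mono, 0.677 with nRBC, 0.765 with T and 0.013 with B. Without bc11 too it was 0.093 with Gr, 0.173 with nRBC and 0.850 with T, and below 0 with Mono (−0.426) and B (−0.051). The cause was not tested.

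The barcodes compared were 43 for Gr, 40 for Mono, 36 for nRBC, 1019 for T and 3307 for B, before any were left out. At 2-fold, 13 barcodes were higher in EOS than in Gr and 10 than in Mono, and 4 were lower than in Mono. At 8-fold, 0 were higher than in Gr or Mono and 3 than in nRBC, and 537 were lower than in T and 1696 than in B. Most of the 537 and 1696 were at 0 in EOS and were called against its limit. With each 0 at 1 read, 28 were higher than in Gr, 29 than in Mono, 28 than in nRBC and 17 than in B, and 8 were lower than in Gr and 4 than in Mono. In this setting every EOS barcode at 0 in the other library passes, since the smallest EOS count is 102. Those at 0 were 21 in Gr, 28 in Mono, 27 in nRBC and 11 in B. Barcodes at 0 in EOS pass likewise, 7 of Gr and 4 of Mono. With the leading group left out and the rest scaled to 100%, 29 were higher than in Gr, 0 than in Mono or nRBC and 28 than in B, and 4 were lower than in Mono, 1 than in nRBC, 0 than in T and 0 than in B. The last setting changes the total each share is taken of. It also raises the limits, most in nRBC, Mono and EOS, so its counts of 0 follow largely from the limits. No paired analysis was possible because each cell type has 1 library on the day.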
